A study of Sus scrofa with 2 samples.

Results

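CXCL9, CXCL10 and CXCL11 are small secreted proteins, the chemokines induced by interferon, and they were examined here in cells of the pig endometrium, the inner lining of the uterus. The 3 genes were taken by symbol from the deposited feature table and all 3 were found, among 10753 rows with a symbol and 26881 rows in all. The data are 2 single-cell libraries, library 2 and library 1, in which endometrium was digested with enzymes, red cells were lysed and the 3′ ends of transcripts were captured in droplets on the 10x Genomics system. Each transcript molecule carries a unique molecular identifier (UMI), so that the values are counts of molecules. The study's design text describes 2 Yorkshire sows, 3 years old and inseminated on day 0, one at 7 days and one at 13 days of gestation. No label ties a gestation day to a library, so the groups are named by library number alone. With 1 library in each group there was no test between libraries: differences of animal, stage, dissection and library cannot be told apart, and every interval below is an exact 95% interval that covers counting error only.

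In human and mouse, the 3 chemokines share 1 receptor, CXCR3, which is carried mainly by activated T cells and natural killer (NK) cells. Interferon gamma acts through its receptor and JAK-STAT signalling to switch the 3 genes on, and type I interferons and NF-kB signalling add to the induction, for CXCL10 above all. CXCL9 depends most closely on interferon gamma. In the pig, the conceptus secretes interferon gamma and interferon delta around the time of its attachment to the uterus, and interferon-responsive genes of the endometrium are known from that setting. In the RefSeq gene table for the pig assembly Sscrofa11.1, the 3 genes are near neighbours in the order CXCL9, ART3, CXCL10 and CXCL11.

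Library 2 held 15093 barcodes and library 1 held 10045, with a median of 4335 UMIs per barcode in library 2 and 3431 in library 1. After 2423 called doublets in library 2 and 1112 in library 1 were removed, 12669 cells of library 2 and 8928 cells of library 1 were kept. The libraries shared 48 barcode sequences, 40 of them among the cells kept. Clusters were named from marker genes, with the 3 chemokines and the interferon genes kept out of the genes used for clustering. The class of macrophage, monocyte or dendritic cell-like cells, called macrophage-type cells below, was 1 cluster in both libraries and held 522 cells of library 2 and 180 cells of library 1. All 25 of its markers with a symbol were detected in library 2 and 24 of them in library 1, among them C1QB, a subunit of complement C1q, at 2021.5 UMIs per 1000000 UMIs (CPM) in library 2 and 4431.1 in library 1. The stromal fibroblast-like, smooth muscle or pericyte-like, blood endothelial-like and epithelial-like cells of the libraries fell mostly into different clusters. In library 2 most blood endothelial-like cells were in clusters 26 and 27, most smooth muscle or pericyte-like cells in cluster 21 and most stromal fibroblast-like cells in clusters 22 and 23. In library 1 the same classes lay mostly in clusters 3 and 4, in cluster 6 and in clusters 0 and 1. In a tissue digest, fewer cells of a type and less RNA per cell cannot be told apart in sums over a whole library.

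CXCL10 was the member with most UMIs in both libraries. Over all cells kept, CXCL10 had 12376 UMIs in 1803 cells of library 2 and 3258 UMIs in 242 cells of library 1. The level was 194.9 CPM in library 2, against 88.1 in library 1 (log2 ratio 1.15, interval 1.09 to 1.20). CXCL9 had 516 UMIs in 172 cells of library 2 and 526 UMIs in 62 cells of library 1, a log2 ratio of -0.81 (-0.99 to -0.63). CXCL11 was scarce, with 75 UMIs in 22 cells of library 2 and 119 UMIs in 14 cells of library 1, a log2 ratio of -1.45 (-1.88 to -1.02). Cells with at least 1 CXCL10 UMI were 14.2% of library 2 and 2.71% of library 1.

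The totals of CXCL10 and CXCL9 were spread over more cells in library 2 than in library 1, while CXCL11 lay in few cells of both. In library 2, 103 cells were needed to reach 50% of the CXCL10 UMIs, 24 cells for CXCL9 and 3 cells for CXCL11. In library 1, 2 cells reached 50% for CXCL10, 2 cells for CXCL9 and 1 cell for CXCL11. One cell of library 1 held 1502 CXCL10 UMIs, 46.1% of that library's total for the gene, together with 90 CXCL9 UMIs and 4 CXCL11 UMIs. It had 26921 UMIs in all and lay in an unnamed cluster led by genes of dividing cells. It also carried 16 UMIs of PECAM1 and 11 of CDH5, both endothelial adhesion genes, and 163 UMIs of GBP1, an interferon-induced GTPase. The highest CXCL10 count in any cell of library 2 was 159 UMIs. A different cell of library 1, a macrophage-type cell with 27 C1QB UMIs, held 238 CXCL9 UMIs and 67 CXCL11 UMIs but only 3 CXCL10 UMIs. It accounted for 45.3% of the CXCL9 and 56.3% of the CXCL11 of library 1.

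**Figure D1:**
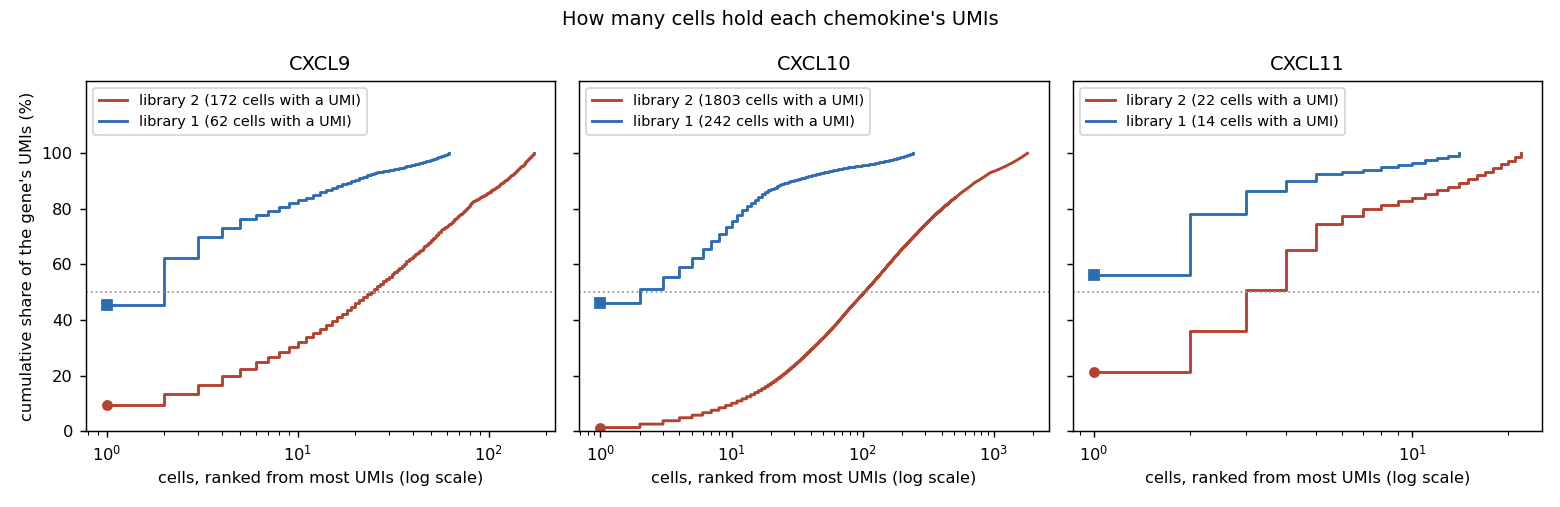
Cumulative share of each chemokine's UMIs (vertical axis, percent) over the cells that hold at least 1 UMI, ranked from the highest (horizontal axis, log scale), for library 2 (red) and library 1 (blue); markers show the first cell. The first cell alone holds 46.1% of the CXCL10 UMIs in library 1, against 1.28% in library 2.

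By cell class, CXCL10 was highest in the macrophage-type cells of library 2, at 3349.6 CPM (3272.2 to 3428.3). The classes that followed in library 2 were smooth muscle or pericyte-like cells at 179.5 (168.7 to 190.9), stromal fibroblast-like cells at 157.9 (150.2 to 165.8) and blood endothelial-like cells at 143.7 (137.4 to 150.1). Lymphatic endothelial-like cells had 50.7 (29.6 to 81.3), which overlapped the plasma cell-like class. Plasma cell-like cells at 21.9, T or NK cell-like cells at 20.6 and epithelial-like cells at 15.9 did not differ from one another beyond their intervals. The lowest levels of library 2 were 10.3 in B cell-like cells (2.12 to 30.0) and 6.94 in ciliated epithelial-like cells (4.72 to 9.85). In library 1 the order was macrophage-type cells at 180.4 (149.1 to 216.4), blood endothelial-like cells at 101.0 (94.9 to 107.3), smooth muscle or pericyte-like cells at 36.8 (32.5 to 41.5) and stromal fibroblast-like cells at 29.3 (25.9 to 32.9). The intervals of the last pair overlapped. T or NK cell-like cells of library 1 had 11.5, and plasma cell-like, lymphatic endothelial-like and epithelial-like cells had between 2.01 and 2.84. The unnamed cells of library 1 stood at 438.9 CPM, of which 98.1% came from the single cell described above.

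**Figure D2:**
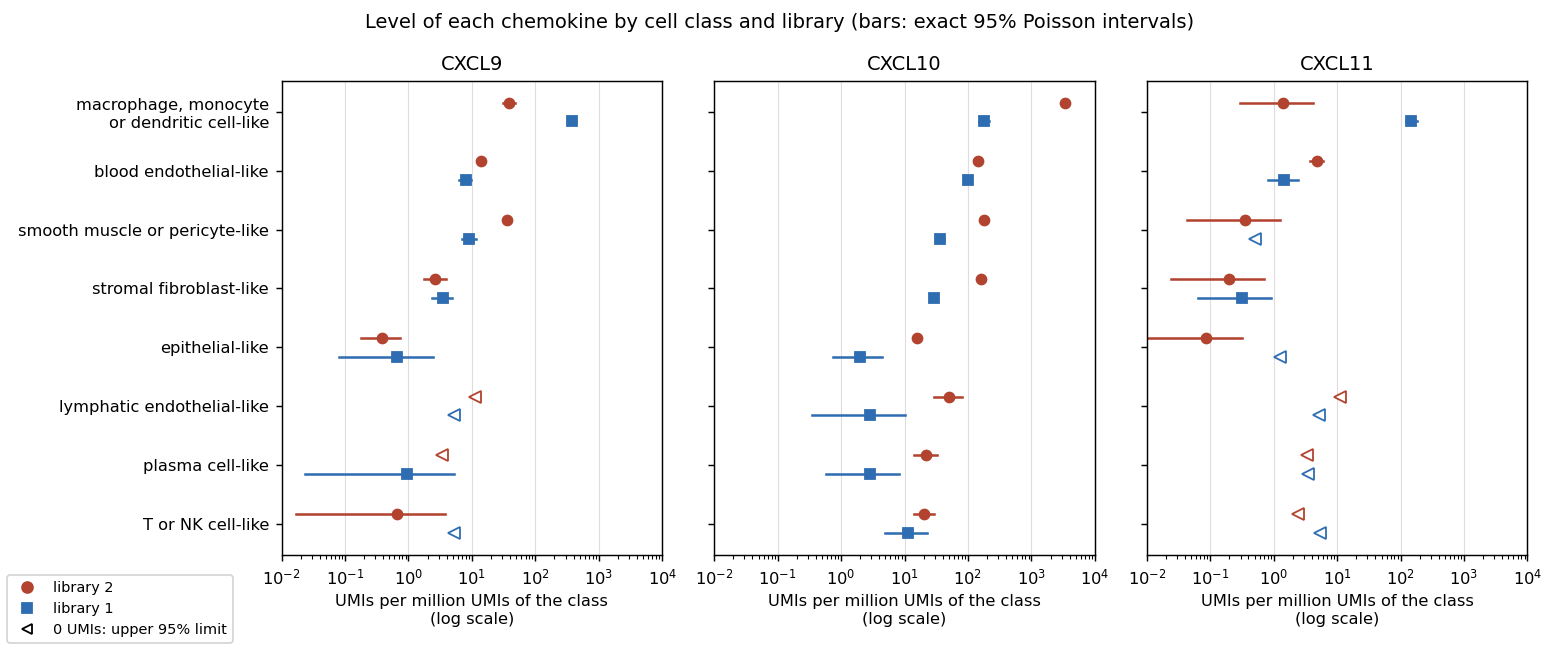
Level of CXCL9, CXCL10 and CXCL11 (horizontal axes, CPM of the class, log scale) in the 8 named classes with at least 50 cells in both libraries, library 2 (red circles) above library 1 (blue squares), with exact 95% Poisson intervals; open triangles are upper limits where a class had 0 UMIs. CXCL10 is higher in library 2 in every class drawn, with overlapping intervals in T or NK cell-like cells, while CXCL9 and CXCL11 of macrophage-type cells are higher in library 1.

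Macrophage-type cells were 4.12% of the cells of library 2 but held 57.5% of its CXCL10 UMIs (56.7% to 58.4%). In library 1 they were 2.02% of the cells and held 3.56% of the CXCL10 UMIs (2.95% to 4.26%). Blood endothelial-like cells held 16.1% of the CXCL10 UMIs of library 2 and 32.0% of those of library 1. Stromal fibroblast-like cells held 12.9% in library 2 and 8.59% in library 1, and smooth muscle or pericyte-like cells held 8.28% in library 2 and 8.16% in library 1. One unnamed cell held 46.1% of the CXCL10 UMIs of library 1. Each class share of library 1 is therefore lower than it would be without that cell, and these shares are not compared between libraries.

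Within macrophage-type cells, CXCL10 was detected in 335 of 522 cells of library 2 (64.2%, 59.9% to 68.3%) and in 39 of 180 cells of library 1 (21.7%, 15.9% to 28.4%). Library 2 summed to 7120 UMIs in this class, against 116 in library 1, and the log2 ratio was 4.21 (3.95 to 4.49). Library 2 had 182 macrophage-type cells with at least 10 CXCL10 UMIs and library 1 had 4, and the median among cells with any UMI was 11 UMIs in library 2 and 1 UMI in library 1. The cells of this class were deeper in library 2, with a median of 4069.5 UMIs against 2944 in library 1. When every cell was thinned to 1000 UMIs, which left out 36 cells of library 2 and 23 of library 1, CXCL10 was found in 55.3% of library 2 cells (50.8% to 59.8%) and in 10.8% of library 1 cells (6.44% to 16.8%).

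Shares of cells with a UMI can include free RNA picked up in droplets, which was not estimated here. Ciliated epithelial-like cells had a CXCL10 UMI in 4.72% of 572 cells of library 2 at a median of 5632 UMIs. T or NK cell-like cells had one in 3.49% of 832 cells of library 2 and in 1.47% of 477 cells of library 1, at medians of 1665 and 1320 UMIs. Against these values, the shares in library 2 of blood endothelial-like cells (18.2%, median 4307.5 UMIs), smooth muscle or pericyte-like cells (17.3%, 3912 UMIs) and stromal fibroblast-like cells (20.9%, 4482 UMIs) were higher. After thinning to 1000 UMIs these 3 classes had CXCL10 in 6.38%, 8.19% and 8.76% of their cells in library 2, against 1.59% of T or NK cell-like cells and 1.06% of ciliated epithelial-like cells. In library 1 the thinned shares were 1.17%, 0.979% and 1.07%, below the 1.33% of T or NK cell-like cells (0.433% to 3.08%, 5 of 376 cells). Some cells of library 1 held many more UMIs than the T or NK cell-like cells, whose highest count was 2. There, 12 blood endothelial-like cells held at least 10 CXCL10 UMIs each. Of them, 8 cells held at least 50 UMIs and together 843 of the 1043 CXCL10 UMIs of their class. Library 2 had 37 blood endothelial-like cells with at least 10 UMIs and 4 with at least 50. Epithelial-like cells had a CXCL10 UMI in 5.02% of 4320 cells of library 2 and 3.08% of 195 cells of library 1, but thinning left 1.48% in library 2, at the level of T or NK cell-like cells. The highest epithelial-like cell held 28 UMIs in library 2 and 1 UMI in library 1.

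**Figure D3:**
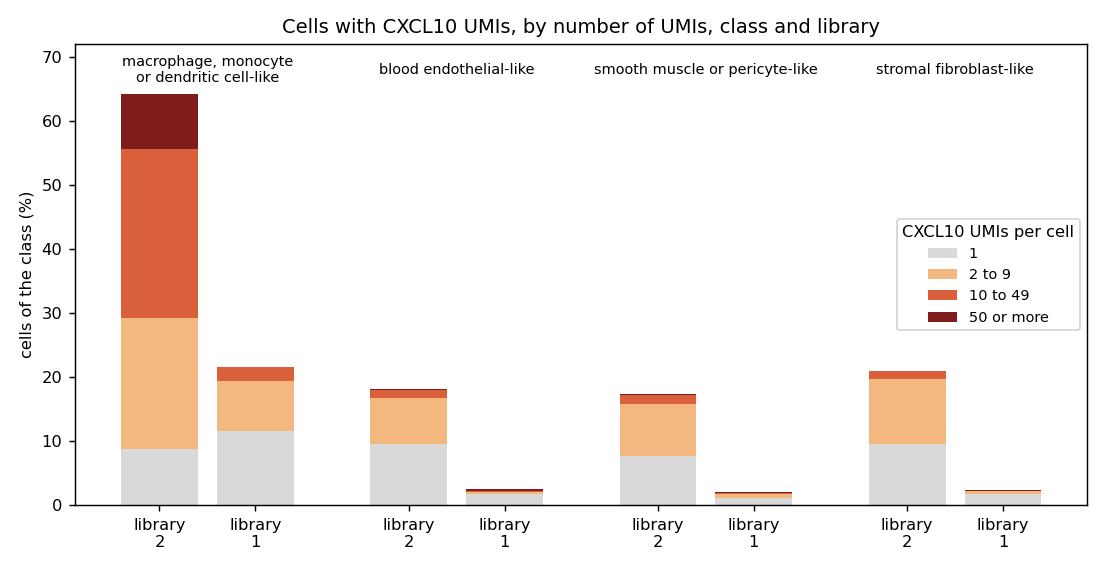
Share of cells with 1, 2 to 9, 10 to 49 and 50 or more CXCL10 UMIs (stacked bars, percent of the cells of the class) in 4 classes, library 2 left of library 1 in each. The bar of macrophage-type cells reaches 64.2% in library 2 and 21.7% in library 1, and cells with 50 or more UMIs are 8.62% of macrophage-type cells in library 2 and none in library 1.

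The markers that moved with this difference were measured beside it. The 25 macrophage-type markers summed to 9546.2 CPM in library 2 and 14821 in library 1. CD86, a costimulatory protein, had 413.5 in library 2 and 82.4 in library 1, and FLT3, a receptor of dendritic cells and their precursors, had 162.8 in library 2 and 38.9 in library 1. The dendritic cell markers XCR1, BATF3 and LAMP3 differed less, at 58.3, 20.2 and 55.5 in library 2 and 52.9, 20.2 and 42.0 in library 1. C1QB was detected in 44.8% of these cells in library 2 and 72.8% in library 1. Stromal fibroblast markers, 13 with a symbol, summed to 664.3 in library 2 and 2496.3 in library 1, smooth muscle or pericyte markers, 9 with a symbol, to 167.9 and 488.4, and epithelial markers, 9 with a symbol, to 759.3 and 332.8. T or NK cell markers, 18 with a symbol, summed to 629.0 in library 2 and 500.8 in library 1, of which 10 were at 0 in library 1. Macrophage-type cells were also divided by whether a UMI of complement C1Q was found. Cells with one had a median of 3009.5 UMIs in library 2 and 2872 in library 1, and cells without one had 4553.5 and 4461. Among macrophage-type cells with a C1Q UMI, 76.4% of 250 cells had CXCL10 in library 2 and 25.2% of 135 cells in library 1, and among those without one, 52.9% of 272 cells had it in library 2 and 11.1% of 45 cells in library 1. These shares were not matched for depth, and the part that C1Q and the other markers play was not tested.

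CXCL9 had a different distribution. In library 2, smooth muscle or pericyte-like cells held 39.1% of its UMIs (34.9% to 43.5%), blood endothelial-like cells 36.8% (32.6% to 41.1%), macrophage-type cells 16.1% and stromal fibroblast-like cells 5.23%. Its level was 39.0 CPM in macrophage-type cells of library 2 (31.1 to 48.4) and 35.4 in smooth muscle or pericyte-like cells (30.7 to 40.6), which overlap, and 13.7 in blood endothelial-like cells. In the smooth muscle or pericyte-like class, 194 of the 202 UMIs of library 2 came from cluster 21, in 62 of its 965 cells. One cell of cluster 21 held 49 of these UMIs. It had 0 UMIs of the class markers ACTA2 and RGS5, with 5 of COL1A1 and 2 of DCN, both stromal markers. The shares of the smooth muscle or pericyte-like and blood endothelial-like classes overlapped in their intervals. Blood endothelial-like cells had CXCL9 in 48 of 2556 cells of library 2 and in 18 of 2562 cells of library 1, with sums of 190 UMIs in library 2 against 82 in library 1 (log2 ratio 0.79, interval 0.41 to 1.18). Smooth muscle or pericyte-like cells had it in 68 of 1322 cells of library 2 and in 16 of 2227 cells of library 1, with sums of 202 UMIs in library 2 against 65 in library 1 (log2 ratio 1.98, interval 1.57 to 2.40). Lymphatic endothelial-like cells had 0 CXCL9 UMIs in both libraries, which, at a limit of 3 counts, allows up to 4.00% of 75 cells of library 2 and 1.42% of 211 cells of library 1 with a UMI.

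In macrophage-type cells the CXCL9 sums ran the other way, with 83 UMIs counted in library 2 against 247 in library 1 and a log2 ratio at -3.30 (-3.68 to -2.93). The 83 UMIs of library 2 were in 26 cells, with a maximum of 9 UMIs. The 247 UMIs of library 1 were in 4 cells, and 238 of them were in the 1 cell described above. Without the highest cell of each library, 74 UMIs were left in library 2, against 9 in library 1, and the log2 ratio was 1.30 (0.30 to 2.48). CXCL9 was detected in 4.98% of macrophage-type cells in library 2 (3.28% to 7.21%) and in 2.22% in library 1 (0.609% to 5.59%), so that the shares of cells overlapped in their intervals.

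Most CXCL11 UMIs lay in 1 class of each library, and the class was not the same. In library 2, blood endothelial-like cells held 66 of its 75 UMIs (88.0%, 78.4% to 94.4%), in 14 of 2556 cells, with 16, 11 and 11 UMIs in the 3 highest cells. In library 1, macrophage-type cells held 95 of its 119 UMIs (79.8%, 71.5% to 86.6%), in 4 of 180 cells with 67, 26, 1 and 1 UMIs. Blood endothelial-like cells of library 1 held 15 CXCL11 UMIs (12.6%) in 6 cells, a log2 ratio of 1.72 (0.89 to 2.63) in this class. Macrophage-type cells of library 2 held 3 CXCL11 UMIs in 2 cells, and the ratio of library 2 to library 1 in log2 was -6.71 (-9.01 to -5.12). Without the highest cell of each library it was -6.55 (-11.90 to -3.95), on 1 UMI in library 2 and 28 in library 1, of which 26 were in a single cell with 19 UMIs of TYROBP, an adaptor of myeloid receptors. Smooth muscle or pericyte-like cells had 2 CXCL11 UMIs in library 2 and 0 of 2227 cells with one in library 1. No CXCL11 UMI was found in T or NK cell-like cells of either library.

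Over all cells, leaving out the highest cells raised the ratio of library 2 over library 1 for each of the 3 genes. The 10 highest cells held 75.7% of the CXCL10 UMIs in library 1, against 10.1% in library 2, so leaving them out takes more from library 1. Over all cells, CXCL10 went to a log2 ratio of 2.02 without the highest cell of each library and to 3.03 without the 10 highest. CXCL9 went to -0.08 (-0.30 to 0.13) without the highest cell and to 1.20 without 10, and CXCL11 to -0.60 and to 0.80 (-0.92 to 2.89). In blood endothelial-like cells the CXCL10 ratio was 0.51 (0.40 to 0.62) with all cells, 0.63 without 1 and 2.97 without 10 cells of each library. In stromal fibroblast-like cells it was 2.43, 2.89 and 4.60, and in smooth muscle or pericyte-like cells 2.29, 2.65 and 4.21. Within these 3 classes, too, leaving out 10 cells takes more from library 1. The 10 highest cells held 87.8%, 83.2% and 83.5% of the class's CXCL10 UMIs in library 1, against 33.2%, 24.5% and 37.9% in library 2.

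**Figure D4:**
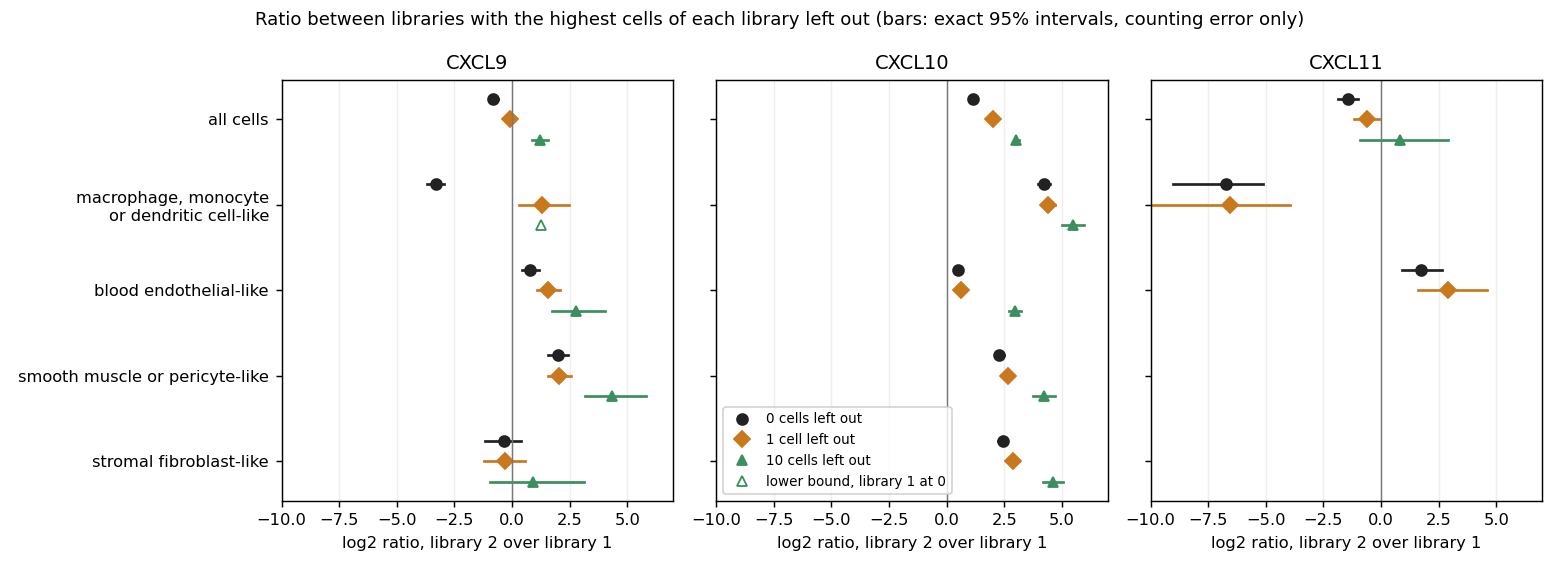
Log2 ratio of library 2 over library 1 (horizontal axes) for each chemokine over all cells and in 4 classes, with all cells (black circles), without the highest cell of each library (orange diamonds) and without the 10 highest (green triangles); bars are exact 95% intervals, drawn up to the edge of the axis, and an open triangle is a value against a floor of 3 UMIs where library 1 had 0 UMIs. CXCL9 of macrophage-type cells moves from -3.30 to 1.30 when 1 cell of each library is left out.

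CXCL10 was detected more often in cells that carried CXCL9. Over all cells of library 2, 73 of the 172 cells with CXCL9 also had CXCL10 (42.4%, 35.0% to 50.2%), against 13.8% of the cells without CXCL9. In library 1, 8 of 62 cells with CXCL9 had CXCL10 (12.9%, 5.74% to 23.9%), against 2.64% of the cells without it. Cells with both genes had more UMIs in all, so depth moves with these shares: their median was 5457 in library 2, against 3737 in cells with neither, and 10350.5 in library 1, against 3173. In blood endothelial-like cells of library 2 the medians were 8054 and 4066. In macrophage-type cells of library 2, 24 of 26 cells with CXCL9 had CXCL10 (92.3%, 74.9% to 99.1%), against 62.7% of those without CXCL9. In blood endothelial-like cells of library 2 it was 23 of 48 (47.9%, 33.3% to 62.8%), against 17.7%, and in smooth muscle or pericyte-like cells 19 of 68 (27.9%, 17.7% to 40.2%), against 16.7% with an overlapping interval (14.7% to 18.9%). Of the 16 smooth muscle or pericyte-like cells of library 1 with CXCL9, 0 had CXCL10.

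CXCL11 accompanied the other members in blood endothelial-like cells of library 2. Of its 14 cells there, 7 had CXCL9 and 9 had CXCL10, against 1.61% and 18.0% of the cells of this class without CXCL11. Depth moves with these shares. Cells with both genes of either pair had a median of 9601 UMIs, against 4282 and 4069 in cells with neither. In this class of library 1, 2 of 6 cells with CXCL11 had CXCL9 and 1 had CXCL10. Of the 14 cells of library 2, 6 had all 3 genes, which were the only cells of library 2 with all 3. In library 1, 4 cells had all 3 genes: 1 macrophage-type, 1 blood endothelial-like, 1 stromal fibroblast-like and the unnamed cell with 1502 CXCL10 UMIs. The amounts within such cells varied widely. The library 2 endothelial-like cell with most CXCL11 had 3 CXCL9, 4 CXCL10 and 16 CXCL11 UMIs, while another had 4, 131 and 11 UMIs of the 3 genes and held both IFNB1 UMIs of its class, the gene of interferon beta.

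The mixture of the 3 genes differed between classes within a library. Of the UMIs of the 3 genes together, CXCL9 made up 1.15% (0.918% to 1.43%) in macrophage-type cells of library 2, 8.47% (7.35% to 9.70%) in blood endothelial-like cells, 16.4% (14.4% to 18.6%) in smooth muscle or pericyte-like cells and 1.66% (1.09% to 2.40%) in stromal fibroblast-like cells. In blood endothelial-like cells the CXCL9 share was 8.47% in library 2 and 7.19% (5.76% to 8.85%) in library 1, with overlapping intervals, while the CXCL11 share was 2.94% (2.28% to 3.73%) in library 2 and 1.32% (0.738% to 2.16%) in library 1. The CXCL9 share of smooth muscle or pericyte-like cells of library 1, 19.6% (15.5% to 24.3%), also overlapped that of library 2. In stromal fibroblast-like cells of library 1 it was 10.4% (7.30% to 14.4%), above that of library 2. The CXCL9 level of this class was 2.66 CPM in library 2 and 3.45 in library 1 (log2 ratio -0.37, -1.16 to 0.41). CXCL10, which makes up most of the total, was at 157.9 in library 2 and 29.3 in library 1. In macrophage-type cells of library 1 the CXCL9 share was 53.9% (49.2% to 58.6%), with 238 of the 247 CXCL9 UMIs in 1 cell.

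The receptor side was measured with the list of receptors and ligand-handling genes, of which 7 of 9 had a symbol. CXCR3, the shared receptor, was highest in T or NK cell-like cells, with 88.4 CPM (74.0 to 104.8) in library 2 and 86.0 (65.6 to 110.6) in library 1. It was detected in 14.3% of these cells in library 2 and 11.5% in library 1. ACKR1, an atypical receptor of venules that binds many inflammatory chemokines, was highest in blood endothelial-like cells, at 201.2 in library 2 and 445.6 in library 1. ACKR3, an atypical receptor for CXCL11 and CXCL12, reached 201.7 in stromal fibroblast-like cells of library 2 and 268.5 in lymphatic endothelial-like cells of library 1. DPP4, a protease that trims the amino terminus of the 3 chemokines, had 62.6 in macrophage-type cells of library 2 and 10.9 in library 1, and 54.5 in blood endothelial-like cells of library 2 and 59.8 in library 1. CXCR4, the receptor of CXCL12, was highest in T or NK cell-like cells at 1743.9 in library 2 and 1055.9 in library 1. ACKR2, a scavenger of inflammatory CC chemokines, was mostly lymphatic, at 71.6 in library 2 and 96.6 in library 1. SDC1, a heparan sulphate proteoglycan, was highest in plasma cell-like cells of library 2, at 61.1.

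Among interferons and their receptors, 15 of 23 listed genes had a symbol. IFNG, interferon gamma, was found mainly in T or NK cell-like cells, with 156 UMIs in 118 cells of library 2 (103.7 CPM, 88.1 to 121.3) and 206 UMIs in 83 cells of library 1 (295.1, 256.2 to 338.3). Over all cells, IFNG UMIs were found in 145 cells of library 2 and 103 cells of library 1, and the relation of IFNG to the CXCL10 levels was not tested. IFNB1 was at 3 UMIs over all of library 2, against 1 in library 1. IFN-DELTA-1, an interferon of the pig conceptus, was at 0 in library 2, against 2 in library 1. IFNE, an interferon of the reproductive tract epithelium, reached 226 UMIs in library 2, against 21 in library 1, and was at 8.04 CPM in epithelial-like cells of library 2 and 5.36 in those of library 1. In macrophage-type cells the receptor chains IFNGR1, IFNGR2 and IFNAR1 were at 98.3, 282.3 and 97.4 CPM in library 2 and at 158.6, 337.5 and 135.3 in library 1, while IFNAR2 was at 234.8 in library 2 and 138.4 in library 1. IL18, a cytokine that raises interferon gamma production, was at 106 in library 2 and 98.0 in library 1, and EBI3 at 44.7 in library 2 and 40.4 in library 1. IL15 was highest in blood endothelial-like cells, at 166.1 in library 2 and 95.2 in library 1, and IL12RB1 in T or NK cell-like cells, at 47.9 in library 2 and 28.7 in library 1. IL12A, IL12B and IL27 had 20, 4 and 20 UMIs in all of library 2 and 9, 0 and 8 in library 1.

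The other genes of the pathway were compared between libraries in macrophage-type cells, as counts of genes past 2-fold. Of 7256 symbols with at least 10 UMIs, 20.2% were at least 2-fold higher in library 2 and 14.4% at least 2-fold lower, with a median log2 ratio of -0.06. With TMM scaling, which adds 0.20 to every log2 ratio of this class, 69.7% of the genes past 2-fold were higher in library 2, against 58.4% without it. Of 17 genes of JAK-STAT and IRF signalling, 7 were at least 2-fold higher in library 2 and 0 lower, with a median log2 ratio of 0.79. IRF1, a transcription factor induced by interferon gamma, had 1063.2 CPM in library 2 and 196.0 in library 1 (log2 ratio 2.44, 2.18 to 2.71). BATF2, another interferon-induced factor, had 172.7 in library 2 and 10.9 in library 1. STAT4, with 166 UMIs in library 2, was at 0 in library 1, which gives a log2 ratio of 4.06 against a floor of 3 UMIs (lower limit of the interval 3.75). At the low end, PTPN6, a phosphatase, had 150.1 in library 2 and 262.8 in library 1, and IRF9 and STAT2, transcription factors of type I interferon signalling, had log2 ratios of -0.55 and -0.14.

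Of 18 gamma-type interferon targets, 6 were at least 2-fold higher in library 2 and 1 lower, with a median log2 ratio of 0.55. The highest were GCH1, an enzyme of biopterin synthesis (70.6 CPM in library 2 and 7.78 in library 1), GBP1 (723.5 and 119.8, log2 ratio 2.59, 2.26 to 2.94) and the adhesion molecule ICAM1 (989.3 and 205.3, log2 ratio 2.27). The Fc receptor FCGR1A was at 61.6 in library 2 and 130.6 in library 1, and VAMP5 had a log2 ratio of -0.57. Of 16 alpha/beta-type targets, 2 were at least 2-fold higher and 0 lower, with a median of 0.17. These were MX2, an antiviral GTPase, at 771.5 in library 2 and 118.2 in library 1, and the RNA sensor IFIH1, at 126.5 in library 2 and 60.7 in library 1. IFIT2 had a log2 ratio of 0.92, and TRIM25, IFIT5 and PLSCR1 had -0.73, -0.35 and -0.34.

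Of 23 genes of the NF-kB pathway and early inflammation, 6 were at least 2-fold higher in library 2 and 0 lower, with a median of 0.59. TICAM1, an adaptor of Toll-like receptors, had a log2 ratio of 2.87, IL1A 2.58 and IL1RN 2.18, while TLR3, TLR4 and RELA had -0.44, -0.38 and -0.20. Of 13 other chemokines, 3 were at least 2-fold higher in library 2 and 2 lower, with a median of 0.05. The 3 were CCL2, with 204.2 CPM in library 2 and 93.3 in library 1, CXCL13, with 70.1 and 32.7, and CXCL12, with 20 UMIs in library 2 and 2 in library 1 (log2 ratio 1.597, -0.44 to 4.74). CCL5 had 290.7 CPM in library 2 and 154.0 in library 1. At the low end, XCL1 had 9 UMIs in library 2 and 19 in library 1, CXCL8 had 30.1 CPM in library 2 and 105.8 in library 1, and CXCL16 had 222.5 and 432.4. Of 29 immediate early and dissociation stress genes, 2 were at least 2-fold higher and 1 lower, with a median of -0.25. CEBPD had 175.0 in library 2 and 17.1 in library 1, FOSL2 had a log2 ratio of 2.30 and NR4A2 0.42, and IER5, HSP90AA1 and EGR2 had -1.16, -0.97 and -0.93.

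Cells rich in CXCL10 were set against cells of the same class and library with none, as a description, since the cells were chosen by their CXCL10 count. In macrophage-type cells of library 2, 182 cells with at least 10 UMIs, with a median of 4560.5 UMIs in all, were compared with 187 cells with none, with a median of 4044. Of 3751 genes compared, 3.41% were at least 2-fold higher in the CXCL10-rich cells and 3.07% at least 2-fold lower. CXCL9 had 75 UMIs in the CXCL10-rich cells and 2 UMIs in the cells with none, in 10.99% and 1.07% of them. The chemokine CCL8 was at 2952.6 CPM in the CXCL10-rich cells and 306.7 in the cells with none, the cytokine TNF at 524.9 and 90.1, IL1B at 321.2 and 61.9, and the inflammasome sensor NLRP3 at 256.7 and 48.4. C1QB was at 3116.1 in the CXCL10-rich cells and 795 in the others, so this macrophage gene moved with CXCL10, and its part in these values was not tested. STAT4 and DPP4 ran the other way, at 42.6 and 38.0 in the CXCL10-rich cells and 145.3 and 98.2 in those with none. Of 22 NF-kB and early inflammatory genes, 12 were at least 2-fold higher, of 18 gamma-type targets 6, of 16 alpha/beta-type targets 3, and of 27 immediate early and stress genes 3. Of 17 JAK-STAT and IRF genes 4 were higher and 1 lower, and of 9 other chemokines 5 were higher and 0 lower.

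In blood endothelial-like cells of library 1, 12 CXCL10-rich cells were set against 2495 cells with none. Of 1896 genes compared, 3.69% were at least 2-fold higher in the CXCL10-rich cells and 6.86% lower. GBP1 was at 3768.7 CPM in the CXCL10-rich cells, with a UMI in all 12, and at 191.3 in the cells with none. IRF1 was at 1021.3 in the CXCL10-rich cells and 174.2 in the others, and TAP1, a transporter of antigen peptides, at 920.6 and 290.1. CXCL9 had 46 UMIs in the 12 CXCL10-rich cells, 39 of them in 1 cell, and 36 UMIs in the other 2495. Of 12 gamma-type targets 6 were at least 2-fold higher, of 11 alpha/beta-type targets 4, of 8 JAK-STAT and IRF genes 2, and of 23 immediate early and stress genes 0. Of 5 NF-kB genes 1 was higher and 0 lower, and of 3 other chemokines 0 were higher and 1 lower. In library 2, 37 CXCL10-rich blood endothelial-like cells were set against 2090 with none, and of 5136 genes 0.915% were at least 2-fold higher and 3.82% lower. At least 2-fold higher were 2 of 16 gamma-type targets, 0 of 16 alpha/beta-type targets, 0 of 15 JAK-STAT and IRF genes, 2 of 7 other chemokines and 0 of 28 stress genes, and of 14 NF-kB genes 1 was higher and 1 lower. GBP1 was at 1650.6 in these CXCL10-rich cells and already at 691.4 in the cells with none, and CD274, an immune checkpoint ligand, at 84.8 and 24.9. CCL5 was at 247.9 and 20.1, but the 2 of these cells with most CXCL10, at 151 and 131 UMIs, held 17 and 36 CCL5 UMIs. C1QB, a macrophage gene, was at 65.2 in the CXCL10-rich endothelial-like cells and 6.25 in the others. It had a UMI in 5.41% of the CXCL10-rich cells and 2.39% of the others, and its part in these values was not tested.

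In 2 further classes of library 2 the same comparison rested on fewer CXCL10-rich cells. Among smooth muscle or pericyte-like cells, 19 CXCL10-rich cells (median 3911 UMIs) were set against 1093 with none (median 3867). Of 2990 genes compared, 2.74% were at least 2-fold higher in the CXCL10-rich cells and 10.3% lower. At least 2-fold higher were 3 of 9 gamma-type targets, 2 of 7 alpha/beta-type targets, 1 of 9 NF-kB genes, 2 of 4 other chemokines and 0 of 26 stress genes. Of 10 JAK-STAT and IRF genes, 0 were at least 2-fold higher and 1 was at least 2-fold lower. The cytokine IL6 was at 361.9 CPM in the CXCL10-rich cells and 73.8 in those with none, and the monocyte attractant CCL2 at 6230.0 and 2054.0. CXCL9 had 51 UMIs in the 19 CXCL10-rich cells, 49 of them in 1 cell, and 112 UMIs in the cells with none.

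Among stromal fibroblast-like cells, 28 CXCL10-rich cells (median 5203.5 UMIs) were set against 1721 with none (median 4374). Of 4086 genes compared, 1.81% were at least 2-fold higher in the CXCL10-rich cells and 5.92% lower. Of 13 gamma-type targets 3 were at least 2-fold higher and 1 lower. At least 2-fold higher were 1 of 13 alpha/beta-type targets, 1 of 12 JAK-STAT and IRF genes, 2 of 9 NF-kB genes, both other chemokines compared and 0 of 26 stress genes. ICAM1 was at 220.0 CPM in the CXCL10-rich cells and 50.6 in those with none, IRF1 at 996.6 and 438.3, and MX2 at 284.7 and 84.5. CXCL9 had 0 UMIs in the 28 CXCL10-rich cells and 18 in the cells with none. The macrophage marker C1QB was also higher in the CXCL10-rich cells, at 117.4 CPM against 7.79 in smooth muscle or pericyte-like cells and at 77.7 against 6.30 in stromal fibroblast-like cells. It had a UMI in 15.8% of the CXCL10-rich cells and 3.11% of the others in the first of these classes, and in 7.14% and 2.67% in stromal fibroblast-like cells, and its part was not tested.

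**Figure D5:**
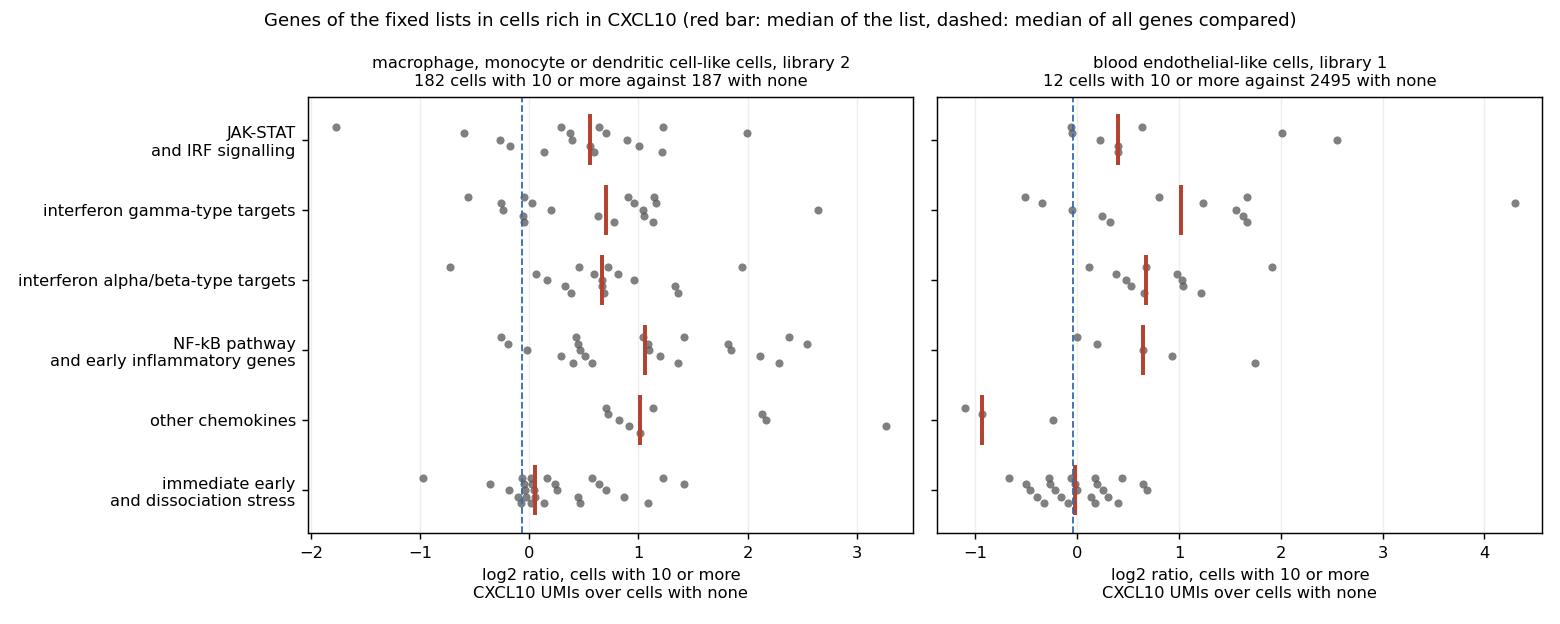
Log2 ratio of cells with 10 or more CXCL10 UMIs over cells with none (horizontal axis) for each gene of 6 lists (grey points), in macrophage-type cells of library 2 (left, 182 against 187 cells) and in blood endothelial-like cells of library 1 (right, 12 against 2495 cells). Red bars are the medians of the lists and the dashed line is the median of all genes compared; the NF-kB list has a median of 1.06 on the left and the gamma-type list 1.02 on the right.

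Across 18 points, each a class of at least 50 cells in 1 library, the genes whose log2 level ran most like CXCL10 were NINJ1 (Pearson's r 0.90), SOD2 (0.86), ICAM1 (0.85), ADAM17 (0.84), ECM1 (0.84), ITSN1 (0.84), P2RY6 (0.83) and SLC8A1 (0.82). For CXCL9 they were TNFSF15 (0.84), CAPN3 (0.84), PTGS1 (0.83), HMOX1 (0.83), ALOX5AP (0.83), TMIGD3 (0.82), TVP23A (0.82) and TLR9 (0.81). For CXCL11 they were CLEC12B (0.87), TLR9 (0.86), PTGS1 (0.86), P2RY13 (0.84), MS4A7 (0.83), CXCL9 (0.80), TVP23A (0.80) and TREM2 (0.77). Most of them were highest in macrophage-type cells, those like CXCL10 in library 2 and those like CXCL9 and CXCL11 in library 1, except SOD2, highest in stromal fibroblast-like cells of library 2, SLC8A1, highest in smooth muscle or pericyte-like cells of library 2, and CAPN3, highest in macrophage-type cells of library 2. Between members, r was 0.72 for CXCL9 and CXCL10, 0.80 for CXCL9 and CXCL11 and 0.45 for CXCL10 and CXCL11. The points of 1 library share its preparation and depth, and the CXCL9 and CXCL11 values of library 1 rest on few cells, so these correlations are descriptions.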

How the data were processed

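The deposited files hold counts: UMI counts per gene and barcode for 2 single-cell libraries of pig endometrium, neither normalized nor corrected. Cell Ranger is given as version 6.1.0 per the file headers and as 2.1.1 per the submitters' processing notes, and the genome build is not given in the sources used here. Each barcode kept had to pass the cell filter, which asked for 500 UMIs or more and 200 genes or more per barcode, and doublets called by Scrublet were then removed. Cells were scaled to 10000 UMIs, log transformed and clustered with scanpy 1.11.5 (2000 variable genes without the members and the interferon, JAK-STAT and chemokine lists, 30 components, 15 neighbours, Leiden resolution 1.0). The 31 clusters were named from markers, of which 152 of 226 entries had a symbol; 28 got a name, with at least 3 markers needed. Of 237 gene list entries, 145 had a symbol. The scoring rule for names, the members and the lists were chosen with earlier results of these data known.

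Library 2 held 87514969 UMIs and library 1 held 45388759. Counts were summed per class and library. Intervals are exact (Poisson, Clopper-Pearson or conditional binomial, 95%, scipy 1.17.1) and cover counting error only. With 1 library per group no test was made. A gene counted as past 2-fold from its ratio alone, among symbols with at least 10 UMIs in the class. Ratios against 0 used a floor of 3 UMIs in the class and library. Totals of CXCL10-rich cells leave out their CXCL10 UMIs. Named list genes are the 3 highest and 3 lowest of each list among those with at least 20 CPM (UMIs per 1000000) in the library where they are higher; the genes most like a member are the 8 with the highest r; other named genes were chosen after their values were seen. Some genes that this rule names are not reported here. TMM scaling came from edgeR 4.0.16. Alternatives were a stricter cell filter, doublets kept, libraries clustered apart, other resolutions, a marker gate per cell, thinning to 1000 UMIs, cells weighted equally and the highest cells left out. List entries without a symbol in the feature table were not analysed here.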

Additional observations from a re-analysis of the deposited data

Results flagged for a closer look

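For 3 pairs of cell classes the ratio of library 2 over library 1 had opposite signs, with both counting intervals away from 0. The difference between classes was not tested, since each group is 1 library. For CXCL9 the log2 ratio was -3.30 in macrophage-type cells and 0.79 in blood endothelial-like cells, a difference of -4.09. Against smooth muscle or pericyte-like cells, where the CXCL9 ratio was 1.98, the difference was -5.28. Both rest on 1 macrophage-type cell of library 1 with 238 CXCL9 UMIs, since without the highest cell of each library the macrophage-type ratio was 1.30. For CXCL11 the log2 ratio was -6.71 in macrophage-type cells and 1.72 in blood endothelial-like cells, a difference of -8.43. The macrophage-type sums were 3 UMIs in library 2 and 95 UMIs in library 1, of which 67 and 26 were in 2 cells.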

How the results depend on the processing

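No paired analysis was possible because each group is 1 library and no test was made. In macrophage-type cells the CXCL10 log2 ratio of 4.21 became 3.70 with doublets kept, 5.66 with a marker gate per cell (81 cells of library 2 and 23 of library 1) and 5.46 without the 10 highest cells. Those 10 cells held 66.4% of the class's CXCL10 UMIs in library 1, against 14.5% in library 2, so leaving them out takes more from library 1. The CXCL9 ratio of -3.30 became -3.97 with doublets kept, -1.89 after thinning and -1.91 with cells weighted equally. It turned to 1.30 without the highest cell. Only 4 macrophage-type cells of library 1 held CXCL9, so leaving out 10 cells was bound to bring that library to 0. The value without 10 cells was 1.26 against a floor of 3 UMIs (lower limit of the interval 0.86), and no turn is read from it. The CXCL11 ratio of -6.71 became -4.95 after thinning and was -6.55 without the highest cell. Over all cells, CXCL9 at -0.81 became -1.003 with doublets kept and -0.083 without the highest cell, and turned to 0.42 after thinning, 0.12 with equal weights and 1.20 without 10 cells. CXCL10 at 1.15 became 1.93 after thinning, 1.90 with equal weights, 1.25 with TMM scaling, 2.02 without the highest cell and 3.03 without 10. CXCL11 at -1.45 became -0.87 after thinning, -0.60 without the highest cell and 0.80 without 10. In stromal fibroblast-like cells CXCL9 at -0.37 (-1.16 to 0.41) turned to 0.92 (-0.98 to 3.10) without 10 cells. The latter rests on 8 UMIs in library 2 and 4 in library 1, and both intervals include 0, so neither value gives a direction. Genes past 2-fold in macrophage-type cells numbered 2510, and 1576 with at least 50 UMIs required, where fewer genes were compared. For the other moves the cause was not tested. No value could be given for CXCL9 under the marker gate, nor for CXCL11 under the gate or without 10 cells. Of the UMI shares by class under the alternatives, 39 moved by less than their interval and 15 by more, and of the co-detection shares 41 and 13. Of the ratios in the other 3 classes without the highest cells, 2 moved by less than their interval, 10 by more and 1 turned. The highest cells were left out singly as an alternative chosen after seeing the data. CXCL9 and CXCL11 rest on few cells in library 1. At this depth no ratio was given where both libraries had 3 UMIs or fewer.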
